A study of Mus musculus with 16 samples.

Results

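The 43 genes described here are type I interferon-stimulated genes of the mouse, found by gene symbol among the 50508 rows of the authors' count table. All 43 were in the table, and 42 carried enough counts to be tested. The 43rd, Trex1, was listed at 0 in all 16 libraries. Bone marrow-derived monocytes of 4 wild-type individuals received M-CSF (macrophage colony-stimulating factor), which drives monocytes towards macrophages, and were stimulated for 24 h. Each individual gave 1 library to each of 4 groups. These were PFM037 together with tumour necrosis factor (PFM037+TNF), TNF alone, PFM037 alone and vehicle, all in the presence of M-CSF. PFM037 is a compound known by its code name alone, and neither its dose nor that of TNF is stated in the labels, nor the strain, sex or age of the animals.

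Type I interferons (interferon beta and the interferon alphas) are secreted proteins that bind the receptor formed by Ifnar1 and Ifnar2. The receptor's kinases activate the factor ISGF3, of which Stat2 and Irf9 are subunits, and this factor binds interferon-stimulated response elements (ISRE) in the promoters of the genes described here. Their products sense foreign nucleic acid, degrade or bind viral RNA, block viral entry and feed back on the pathway, and macrophages are known both to make a low, constant amount of interferon beta and to release more of it in answer to TNF.

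Promoters were examined in 250 bases before to 50 bases after each gene start, taken from RefSeq (GRCm38.p6), where 33 of the 43 members had an entry. The core of an ISRE (the letters GAAA, any 2 bases and GAAA again) stood on either strand in 15 of these 33 members (45.5%), against 3.99% of all 27025 genes of that table. TTCNNNGAA, the gamma-activated site known from interferon gamma signalling, stood in 9 members (27.3%), against 9.55% of all genes, and a kappa B site of the NF-kB factors that TNF activates (GGG, any 3 bases and TTCC) in 6 members (18.2%), against 6.31%. The 200 bases before the RefSeq gene start of 5 members are printed 5′ to 3′ along the gene's strand, with matched letters in capitals. Ifit1, Rsad2 and Isg15 were chosen as textbook ISRE genes, Irf1 as one of 5 members with a gamma-activated site and no ISRE match, and Irf7 as a member whose window held none of these motifs. Where matches of different motifs overlap, both were counted. In Ifit1 and Rsad2 the capitals mark the ISRE letters read on the opposite strand, in Isg15 they mark 3 overlapping ISRE matches, and in Irf1 a gamma-activated site.
Ifit1 (chr19:34640689-34640888, plus strand): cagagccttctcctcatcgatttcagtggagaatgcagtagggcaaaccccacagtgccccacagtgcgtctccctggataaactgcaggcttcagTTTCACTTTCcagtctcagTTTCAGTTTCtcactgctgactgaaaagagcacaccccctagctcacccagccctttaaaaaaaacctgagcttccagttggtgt
Rsad2 (chr12:26456453-26456652, minus strand): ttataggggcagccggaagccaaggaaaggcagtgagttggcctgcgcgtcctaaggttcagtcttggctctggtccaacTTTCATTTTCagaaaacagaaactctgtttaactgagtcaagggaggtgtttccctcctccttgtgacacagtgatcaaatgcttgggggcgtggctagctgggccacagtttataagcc
Isg15 (chr4:156200819-156201018, minus strand): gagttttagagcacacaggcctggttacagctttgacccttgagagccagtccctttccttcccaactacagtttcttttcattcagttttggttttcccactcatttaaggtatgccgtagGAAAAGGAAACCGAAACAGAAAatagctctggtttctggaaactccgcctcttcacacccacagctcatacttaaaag
Irf1 (chr11:53769814-53770013, plus strand): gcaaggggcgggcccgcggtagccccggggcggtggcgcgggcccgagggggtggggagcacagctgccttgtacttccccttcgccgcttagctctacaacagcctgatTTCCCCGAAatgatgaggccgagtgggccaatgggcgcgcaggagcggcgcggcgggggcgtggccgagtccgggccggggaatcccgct
Irf7 (chr7:141266425-141266624, minus strand): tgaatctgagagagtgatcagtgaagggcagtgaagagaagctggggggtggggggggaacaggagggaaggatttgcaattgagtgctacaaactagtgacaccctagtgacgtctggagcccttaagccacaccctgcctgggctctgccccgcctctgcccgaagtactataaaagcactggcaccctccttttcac
The ISRE letters began 104 and 85 bases before the start of Ifit1, 120 before that of Rsad2, and 78, 72 and 66 before that of Isg15, and the gamma-activated site 90 before that of Irf1. These matches are letters in a window and do not show binding. Sites spelled otherwise were not searched, so a window without a match may still hold a site.

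Library totals ran from 9403232 to 21017905 counts, both in the TNF group, and no pair of replicates agreed within sampling noise. The unit of a level is CPM, the count a gene would have in a library of 1000000 counts after TMM correction. Markers of the labelled cell type were all detected, with a summed level of 36810 to 45340 CPM with PFM037+TNF, 38330 to 47240 with TNF, 24870 to 36700 with PFM037 and 27470 to 38860 with vehicle, so that PFM037+TNF and PFM037 did not overlap in it. Markers of plasmacytoid dendritic cells, the blood cells known for the largest interferon output, were low in level. The 10 markers summed to 78.1 to 84.6 CPM with PFM037+TNF and 59.3 to 81.6 CPM with TNF. With PFM037 the sum was 88.3 to 96.1 CPM, and with vehicle 82.3 to 90.5 CPM. Whether such cells or others in the cultures made this RNA was not tested. The sums were lower with PFM037+TNF than with PFM037, and lower with TNF than with vehicle, without overlap in either case. A sum weighs the most abundant markers most, and the list was mixed. Of 8 tested markers, 3 had a fitted change above 0 in each of these comparisons. The median log2 fold change of the tested markers was -0.10 in the former and -0.07 in the latter. All 10 plasmacytoid markers had a count in some library, but Klk1 was at 0 in every PFM037+TNF and every vehicle library. In bulk RNA, fewer cells of a type and less RNA per cell cannot be told apart.

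The members differed widely between individuals. Every tested member differed between the 4 individuals (42 of 42, edgeR quasi-likelihood F-test on the individual term, largest adjusted p 1.722e-06). Of all 13856 genes, 60.6% did. The 4 libraries of an individual share a source, so the test speaks of these 4 individuals alone. In it the animal and its culture or handling cannot be told apart. The highest mean log2 CPM of a member was in individual 3 for 21 members and in individual 4 for 21, and the lowest in individual 2 for 38 and in individual 1 for 4. The median member spanned 2.54 on the log2 scale between its highest and lowest individual, against 0.47 for the median of all genes tested. The median level over the 42 tested members was 65.5, 43.8, 150.4 and 172 CPM in individuals 1, 2, 3 and 4 with PFM037+TNF, and 24.5, 20.99, 143 and 124 CPM with PFM037. It was 47.4, 27.3, 136 and 147 CPM with TNF, against 28.9, 22.5, 130 and 119 CPM with vehicle. Individuals 3 and 4 therefore stood above individuals 1 and 2 in every group, and all comparisons of treatments were made within individuals.

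The spread between individuals was unequal among members. In vehicle the highest individual exceeded the lowest 22.3-fold for Irf7, the interferon regulatory factor that drives interferon alpha genes, and 36.4-fold for Ifit1, which binds RNA that lacks the host's cap methylation. It was 85.2-fold for Ifit3, a partner of Ifit1, and 93.6-fold for Ifi44, which had 4 counts in its lowest library and was under 10 counts in 5 libraries. At the other end were Ifi35 at 1.99-fold and Irf1 at 2.05-fold. Levels per kilobase of exon in vehicle ran from 1.31 CPM for Ifi44 and 1.79 CPM for Herc6 to 202 CPM for Bst2 and 853 CPM for Ifitm3, membrane proteins that hold back budding and entering viruses. Markers of other cells also differed between individuals: the summed level of 10 mast cell, basophil and eosinophil markers was 314 to 587 CPM in individual 1 and 370.0 to 499 in individual 2, and 119 to 144 in individual 3 and 121 to 147 in individual 4. The 9 neutrophil markers summed to 10670 to 12700 CPM and 11970 to 20090 CPM in individuals 1 and 2, and to 8879 to 10350 CPM and 7554 to 9422 CPM in individuals 3 and 4. No neutrophil marker was at 0 in any library, and of the other list Fcer1a was at 0 in the TNF library of individual 3. The part of such cells in the difference between individuals was not tested.

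**Figure D1:**
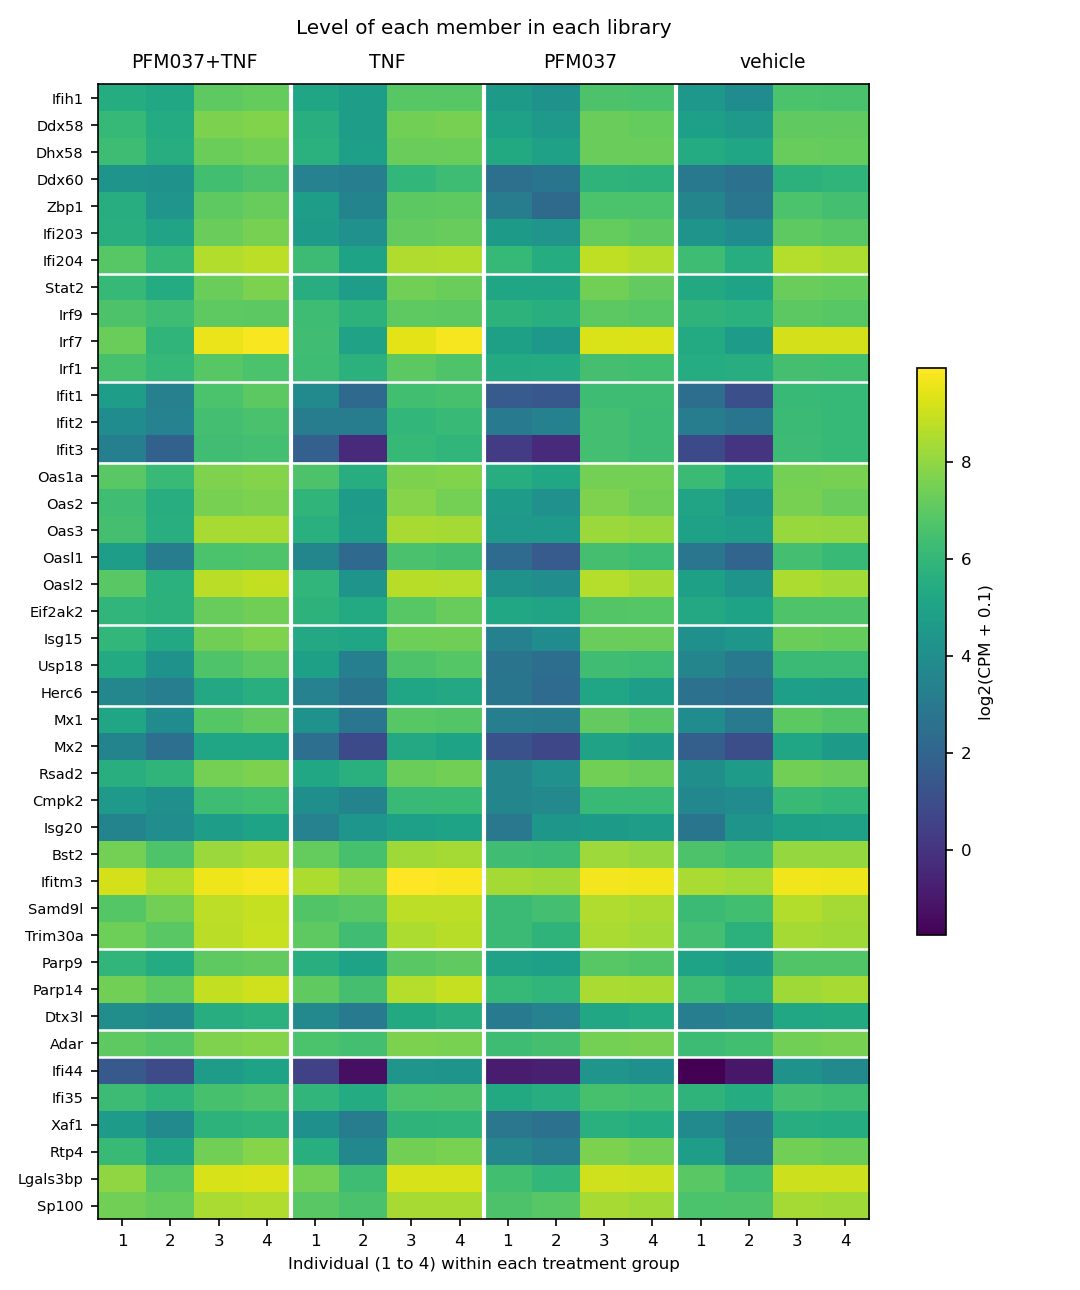
Level of the 42 detected members (rows, ordered by role, white lines between roles) in the 16 libraries (columns, individuals 1 to 4 within each group), as log2(CPM + 0.1) in colour. In every group the columns of individuals 3 and 4 are brighter than those of individuals 1 and 2, whose median levels are 24.5 and 20.99 CPM with PFM037, against 143 and 124 CPM in individuals 3 and 4.

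TNF raised most members in cells that also received PFM037. In PFM037+TNF against PFM037, 36 of the 42 tested members rose and none fell (edgeR quasi-likelihood test with the individual as a block, Benjamini-Hochberg over all genes, adjusted p under 0.05), while 10.6% of all genes rose and 9.76% fell (20.4% either way). PFM037+TNF against PFM037 is called the PFM037 pair here and TNF against vehicle the vehicle pair, which share individuals but no library. The median log2 fold change of the members was 0.69, and that of all genes tested -0.01. Not passing were Ifi204, Ifit2, Ifit3, Mx1, Isg20 and Ifitm3, all with fitted changes above 0. Within individuals 32 members were higher in all 4, as were 17.4% of all genes, but no member had all 4 libraries with PFM037+TNF above all 4 with PFM037, as 4.98% of all genes did. In the fit without the individual as a block none of the 42 passed, also at an unadjusted p under 0.05 (smallest adjusted p 0.5004), while 2.25% of all genes passed and 13.5% had such a p. With individuals left out in turn, 24 members passed without individual 1, 24 without individual 2, 38 without individual 3 and 29 without individual 4, and 20 of the 36 passed in all 4 of these fits. Over all genes, 2464, 1596, 2210 and 1434 passed in these fits, against 2828 with all individuals.

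The size of this change went with the individual. Within individuals, the median log2 difference of the 42 members was 1.16 in individual 1, 0.94 in individual 2, 0.14 in individual 3 and 0.35 in individual 4. It was above 0 for 42, 41, 33 and 42 members in that order. The individuals with the low levels thus had the larger differences, which describes 4 individuals and was not tested. Across the 42 members, the span between individuals in vehicle and the fitted change in PFM037+TNF against PFM037 had a Pearson r of 0.641 and a Spearman rho of 0.699. These members share their libraries and are not independent.

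**Figure D2:**
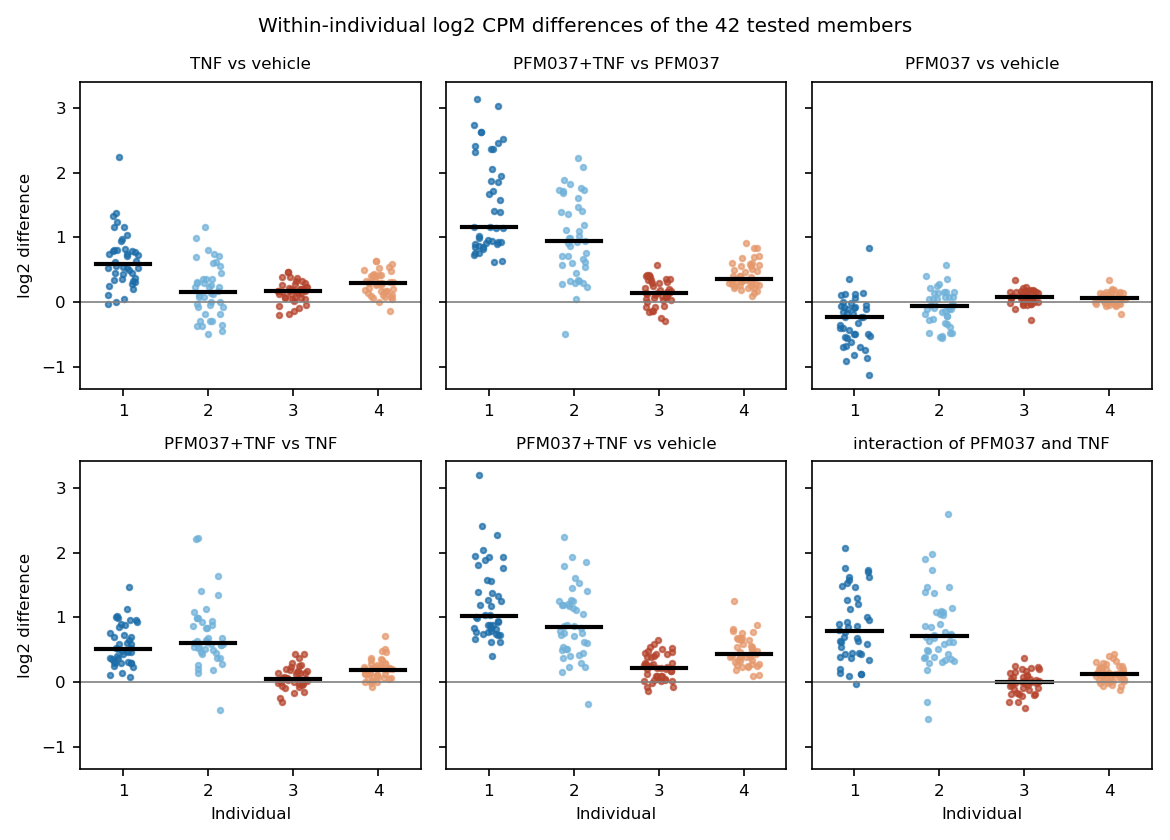
Log2 CPM differences within each individual (prior count 2) for the 42 tested members, 1 point a member and a black line at the median, in 6 panels for the 5 comparisons and the interaction. In PFM037+TNF vs PFM037 the medians are 1.16, 0.94, 0.14 and 0.35 in individuals 1 to 4, and in PFM037 vs vehicle they lie between -0.23 and 0.08.

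Sensors of RNA and DNA rose in 6 of 7 cases in PFM037+TNF against PFM037. Ifih1 encodes MDA5, a cytosolic sensor of long double-stranded RNA. Ifih1 stood at 44.0, 36.8, 133 and 143 CPM in individuals 1 to 4 with PFM037+TNF, against 24.4, 18.5, 102 and 94.3 CPM with PFM037. With TNF it stood at 36.0, 26.7, 120.0 and 120.5 CPM, against 22.0, 15.3, 97.6 and 96.8 CPM with vehicle. Every individual was higher with TNF, while the groups overlapped because of the gap between individuals. The change was 1.62-fold in the presence of PFM037 (log2 fold change 0.70 ± 0.10, adjusted p = 0.000143) and 1.42-fold in its absence (log2 fold change 0.50 ± 0.10, adjusted p = 0.00227).

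Zbp1, a sensor of Z-form nucleic acid that can start necroptosis, stood at 45.3, 20.3, 129.7 and 149 CPM with PFM037+TNF, against 8.67, 4.69, 97.6 and 97.3 CPM with PFM037. It was at 27.8, 11.3, 129 and 131 CPM with TNF, against 11.7, 6.91, 98.6 and 87.3 CPM with vehicle. All 4 individuals were higher in both pairs, with the wider steps in individuals 1 and 2. Zbp1 had the highest fitted change of the module in PFM037+TNF against PFM037 (log2 fold change 1.22 ± 0.23, adjusted p = 0.00154), and it also passed in TNF against vehicle (log2 fold change 0.69 ± 0.23, adjusted p = 0.0457). The call in TNF against vehicle was lost without individual 1, 2 or 4, with size alone as scaling, and with DESeq2 or limma-voom.

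The other sensors that rose in PFM037+TNF against PFM037 were Ddx60, a helicase linked to RIG-I signalling (2.12-fold, log2 fold change 1.08 ± 0.14, adjusted p = 5.5e-05), Ddx58, which encodes the RNA sensor RIG-I (1.66-fold), Ifi203, of the DNA-binding PYHIN family (1.51-fold), and Dhx58, which encodes LGP2, a regulator of RIG-I and MDA5 (1.36-fold, lost without individual 1 or 2). Ifi204, another PYHIN protein that senses DNA, did not pass (log2 fold change 0.34 ± 0.13, adjusted p = 0.0781). Of its read-length words of 75 bases, 13.2% also occur in transcripts of other genes, chiefly Ifi211, so its counts are uncertain, as are those of Ifi203 (5.71% shared).

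All 4 signal and transcription factors rose in PFM037+TNF against PFM037. Irf7, made in small amounts until interferon raises it, stood at 161, 59.4, 777 and 922 CPM with PFM037+TNF, against 29.2, 22.2, 628 and 645 CPM with PFM037. It stood at 82.7, 31.1, 702 and 894 CPM with TNF, against 42.04, 25.8, 575 and 577 CPM with vehicle. The individuals kept their wide distance in every group, and each was higher with TNF in both pairs. The change was 2.22-fold with PFM037 present (log2 fold change 1.15 ± 0.23, adjusted p = 0.00236) and did not pass without it (log2 fold change 0.54 ± 0.23, adjusted p = 0.109).

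Irf1, an early factor that answers to NF-kB and to interferons, stood at 91.8, 66.0, 118 and 99.3 CPM with PFM037+TNF, against 41.4, 43.1, 88.9 and 83.1 CPM with PFM037. Its levels were 77.8, 54.2, 125 and 105 CPM with TNF, against 44.5, 46.2, 91.1 and 84.6 CPM with vehicle. Here individual 2 with TNF lay below individuals 3 and 4 without it, so the groups overlapped. Irf1 rose in both pairs, 1.52-fold (log2 fold change 0.61 ± 0.11, adjusted p = 0.00119) and 1.37-fold (log2 fold change 0.45 ± 0.11, adjusted p = 0.00965), and both calls held with each individual left out. It was higher in PFM037+TNF than in TNF in individuals 1 and 2 and lower in individuals 3 and 4 (log2 fold change 0.09 ± 0.11, adjusted p = 0.750).

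Stat2, the ISGF3 subunit that carries its activating domain, stood at 66.7, 43.7, 157 and 198 CPM with PFM037+TNF, against 35.5, 35.4, 172 and 139.9 CPM with PFM037. It was at 46.5, 28.1, 176 and 157 CPM with TNF, against 40.3, 32.1, 156 and 146 CPM with vehicle. Individual 3 was lower with PFM037+TNF than with PFM037 and the other individuals were higher. Stat2 passed in the first pair (log2 fold change 0.39 ± 0.12, adjusted p = 0.0291), a call lost without individual 1, 2 or 4, and did not pass in TNF against vehicle (log2 fold change 0.09 ± 0.12, adjusted p = 0.660). Irf9, the DNA-binding subunit of ISGF3, rose 1.36-fold in PFM037+TNF against PFM037, a call lost without individual 1 or 2.

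Of the 3 IFIT genes, which lie in 1 cluster on chromosome 19, Ifit1 alone passed in PFM037+TNF against PFM037. Ifit1 (chr19:34640871-34650009, GRCm38, plus strand) stood at 26.6, 9.89, 98.8 and 126 CPM with PFM037+TNF, against 2.91, 2.59, 77.8 and 78.3 CPM with PFM037. Its levels were 14.3, 4.62, 83.9 and 91.5 CPM with TNF, against 5.41, 2.00, 72.9 and 68.1 CPM with vehicle. Individuals 1 and 2 moved by several-fold and individuals 3 and 4 by much less, with within-individual log2 differences of 3.14, 1.88, 0.34 and 0.68 in PFM037+TNF against PFM037. The fitted change was 2.33-fold there (log2 fold change 1.22 ± 0.29, adjusted p = 0.00774) and did not pass in TNF against vehicle (log2 fold change 0.63 ± 0.29, adjusted p = 0.148).

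Ifit3 was read less surely: its within-individual log2 differences were 3.02, 2.23, -0.08 and 0.19, it did not pass (log2 fold change 0.69 ± 0.32, adjusted p = 0.132), and 41.1% of its read-length words also occur in Ifit3b. Ifit2, which restrains viral spread in the nervous system of mice, did not pass either (log2 fold change 0.28 ± 0.11, adjusted p = 0.0841).

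The oligoadenylate synthetase family and the RNA-activated kinase rose in 6 of 6 cases in PFM037+TNF against PFM037. Oas2 makes the oligoadenylate that switches on RNase L. It stood at 81.7, 46.4, 187 and 198 CPM with PFM037+TNF, against 25.6, 17.6, 205 and 169.6 CPM with PFM037. With TNF it stood at 59.4, 25.3, 223 and 182 CPM, against 33.7, 20.5, 185 and 151 CPM with vehicle. Individual 3 was lower with PFM037+TNF than with PFM037 and the other individuals were higher. Oas2 passed there (log2 fold change 0.75 ± 0.21, adjusted p = 0.0179), a call lost without individual 1 or 2, and not in TNF against vehicle (log2 fold change 0.41 ± 0.21, adjusted p = 0.179).

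The others were Oasl2 (2.31-fold, log2 fold change 1.21 ± 0.29, adjusted p = 0.00720) and Oasl1 (1.92-fold), relatives of which Oasl1 is known in mice to curb Irf7 translation, Oas3 (1.83-fold), Oas1a (1.60-fold) and Eif2ak2, which encodes the kinase PKR that halts translation (1.505-fold). The calls of Oasl1 and Oasl2 were lost without individual 2. Oas1a shares 47.6% of its read-length words with Oas1g, so its counts cannot be told apart from those of its neighbour with certainty.

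All 3 genes of the ISG15 system rose in PFM037+TNF against PFM037. Isg15 encodes the ubiquitin-like protein that is joined to target proteins. Isg15 (chr4:156199424-156200818, minus strand) stood at 64.2, 39.3, 171 and 202 CPM with PFM037+TNF, against 10.3, 15.3, 156 and 153 CPM with PFM037. It stood at 38.8, 35.8, 166 and 167 CPM with TNF, against 17.3, 21.4, 160.3 and 146 CPM with vehicle. Individuals 1 and 2 held the widest steps, and the call in PFM037+TNF against PFM037 (2.02-fold, log2 fold change 1.01 ± 0.27, adjusted p = 0.0137) was lost without individual 2. In TNF against vehicle it did not pass (log2 fold change 0.50 ± 0.26, adjusted p = 0.200).

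Usp18 removes Isg15 from its targets and blocks the receptor subunit Ifnar2. It was at 41.4, 18.7, 104 and 125 CPM with PFM037+TNF, against 6.58, 5.41, 81.5 and 77.2 CPM with PFM037. Its levels were 29.8, 9.61, 101 and 115 CPM with TNF, against 11.7, 7.81, 73.1 and 74.4 CPM with vehicle. All 4 individuals were higher in both pairs. It rose 2.29-fold in the first pair (log2 fold change 1.196 ± 0.24, adjusted p = 0.00251) and narrowly missed the threshold in TNF against vehicle (log2 fold change 0.70 ± 0.24, adjusted p = 0.0517), where it passed with size factors of DESeq2 as scaling or with the stricter filter. Herc6, the main ligase for Isg15 in mice, rose 1.57-fold in PFM037+TNF against PFM037 and 1.40-fold in TNF against vehicle, a call lost in TNF against vehicle without individual 1 or 4.

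Among the 9 GTPases, membrane and nucleotide effectors, 6 rose in PFM037+TNF against PFM037. Rsad2 encodes viperin, which makes a chain-terminating nucleotide. It stood at 49.3, 58.6, 183 and 199 CPM with PFM037+TNF, against 11.7, 17.5, 173 and 161 CPM with PFM037. With TNF it stood at 37.1, 51.0, 161 and 172 CPM, against 16.6, 25.6, 176 and 152 CPM with vehicle. In the vehicle pair individual 3 was lower with TNF and the other individuals were higher. Rsad2 rose 1.91-fold in the PFM037 pair (log2 fold change 0.93 ± 0.26, adjusted p = 0.0173), a call lost without individual 1 or 2, and did not pass in the vehicle pair (log2 fold change 0.52 ± 0.25, adjusted p = 0.166).

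Mx1, a dynamin-like GTPase against influenza virus that is disabled in many inbred mouse strains, was at 34.9, 15.3, 116 and 142 CPM with PFM037+TNF, against 9.44, 8.99, 142 and 118 CPM with PFM037. It was at 18.2, 6.94, 119 and 112 CPM with TNF, against 15.3, 8.51, 128 and 108 CPM with vehicle. Individual 3 was lower with TNF in both pairs, individual 2 in the vehicle pair as well, and Mx1 did not pass in either (log2 fold change 0.56 ± 0.21, adjusted p = 0.0716 in the PFM037 pair and log2 fold change -0.00 ± 0.21, adjusted p = 0.997 in the vehicle pair). Ifitm3, which hinders virus fusion, was at 592, 362, 795 and 914 CPM with PFM037+TNF, against 334, 306, 841 and 832 CPM with PFM037. Its levels were 366, 249.5, 984 and 918 CPM with TNF, against 353, 323, 837 and 801 CPM with vehicle. Ifitm3 passed in neither pair (log2 fold change 0.30 ± 0.13, adjusted p = 0.118 and log2 fold change 0.04 ± 0.13, adjusted p = 0.870), and Isg20, an exonuclease, had the lowest change of the module in the PFM037 pair (log2 fold change 0.13 ± 0.14, adjusted p = 0.542).

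The other effectors rose in PFM037+TNF against PFM037: Mx2 (1.90-fold), annotated as a polymorphic pseudogene, Trim30a, a ubiquitin ligase that dampens NF-kB signalling in mice (1.73-fold), Samd9l, a restriction factor (1.51-fold), Bst2, which encodes tetherin (1.38-fold), and Cmpk2, a mitochondrial nucleotide kinase that lies beside Rsad2 on chromosome 12 (1.33-fold). The calls of Mx2 and Bst2 were lost without individual 1 or 2, that of Bst2 also without individual 4, and that of Cmpk2 without individual 1 or 4.

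Genes of ADP-ribosylation rose in 3 of 3 cases in PFM037+TNF against PFM037: Parp14 (1.86-fold), Parp9 (1.40-fold) and Dtx3l, the ubiquitin ligase that pairs with Parp9 (1.34-fold, lost without individual 1, 3 or 4). Parp9 and Dtx3l are transcribed from neighbouring starts on opposite strands and their annotated exons overlap, over 9.4% of the exon bases of Parp9 and 8% of those of Dtx3l. Likewise 16.8% of the exon bases of Adar lie opposite Chrnb2 and 16.8% of those of Ifi35 opposite Gm11626. Whether counting used the strand is unknown, so reads of such partners may have been shared. Adar, which edits adenosine in double-stranded RNA and so keeps host RNA from MDA5, stood at 133, 111, 207 and 216 CPM with PFM037+TNF, against 77.9, 88.4, 182 and 186 CPM with PFM037. It was at 98.1, 85.7, 199 and 194 CPM with TNF, against 77.6, 85.5, 172 and 184 CPM with vehicle. The change was small and passed in the PFM037 pair (1.30-fold, log2 fold change 0.38 ± 0.09, adjusted p = 0.00534) and not in the vehicle pair (log2 fold change 0.15 ± 0.09, adjusted p = 0.222).

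The remaining 6 interferon-stimulated genes all rose in PFM037+TNF against PFM037. They were Rtp4, known for inhibiting flavivirus replication (2.02-fold), Ifi44 (1.99-fold), Xaf1, a partner of the apoptosis inhibitor XIAP (1.73-fold), Lgals3bp, a secreted galectin-binding protein (1.63-fold), Ifi35 (1.31-fold) and the nuclear body protein Sp100 (1.27-fold). Sp100, Adar, Ifi35, Stat2 and Cmpk2 had the 5 smallest changes among members that passed, from 0.34 to 0.41 on the log2 scale, and Zbp1, Ifit1, Oasl2, Usp18 and Irf7 the 5 largest, from 1.15 to 1.22. The calls of Rtp4, Ifi35 and Sp100 were lost without individual 1, those of Rtp4 and Sp100 also without individual 2, and those of Ifi44, Ifi35 and Sp100 without individual 4.

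**Figure D3:**
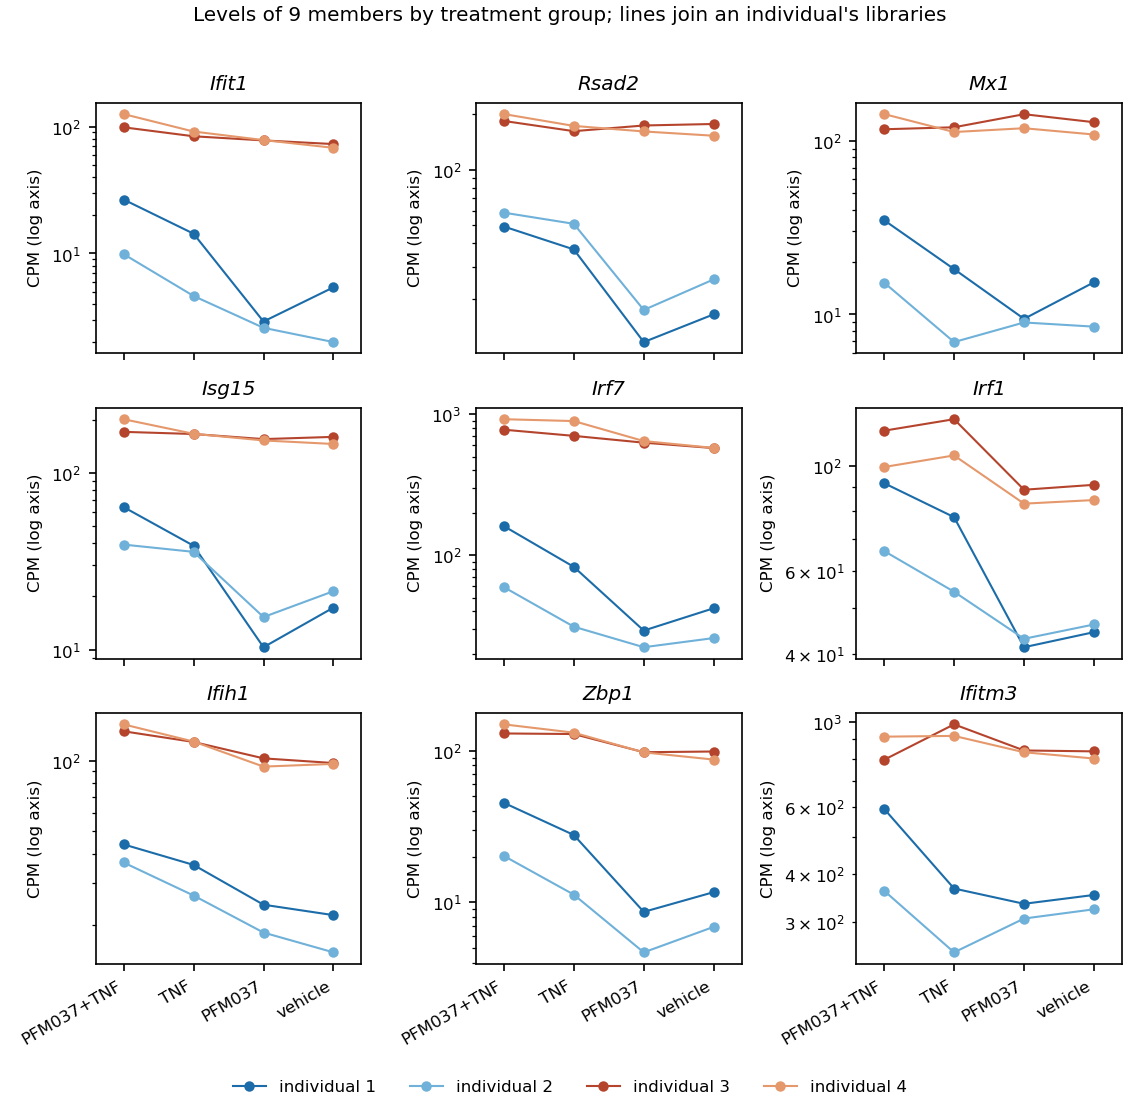
CPM of 9 members (log axis) in the 4 groups, with a line for each individual. For Zbp1 all 4 lines are higher with PFM037+TNF than with PFM037, by the widest steps in individuals 1 and 2, while Irf7 stays between 575 and 777 CPM in individual 3.

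TNF without PFM037 raised 10 members. In TNF against vehicle 10 of 42 members rose and none fell, where 9.59% of all genes rose and 9.84% fell (19.4% either way), and the median log2 fold change was 0.32 for the members and -0.02 for all genes. They were Zbp1 (1.61-fold), Parp14 (1.51-fold), Ifih1 (1.42-fold), Herc6 (1.40-fold), Ddx58 (1.37-fold), Irf1 (1.37-fold), Trim30a (1.35-fold), Samd9l (1.33-fold), Eif2ak2 (1.31-fold) and Parp9 (1.26-fold). Eif2ak2 had the smallest adjusted p (0.000952) and the smallest SE. An unadjusted p under 0.05 was reached by 15 of the 42 members and by 32.7% of all genes. Within individuals the median difference was 0.59, 0.16, 0.18 and 0.30 on the log2 scale in individuals 1, 2, 3 and 4, and 25 members were higher with TNF in all 4 individuals, as were 18.6% of all genes. No member had all 4 TNF libraries above all 4 vehicle libraries, as 4.44% of all genes did. Ifi204, Ifit3 and Mx1 had fitted changes of -0.11, -0.03 and -0.00, none past the threshold.

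The number that passed in TNF against vehicle depended on the fit. It was 5 without individual 1, 7 without individual 2, 11 without individual 3 and 6 without individual 4, and Ifih1, Ddx58, Irf1, Eif2ak2 and Parp14 passed in all of these fits. Over all genes 1581, 1685, 2294 and 1703 passed in them, against 2692 with all individuals. The number of members was 22 when only the libraries of these groups were fitted (2610 of 13318 genes) and 23 with no filter beyond a count above 0 (2867 of 30556 genes), and 0 in the fit without the individual as a block, in which no member had an unadjusted p under 0.05 while 13.3% of all genes did and 2.68% passed.

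**Figure D4:**
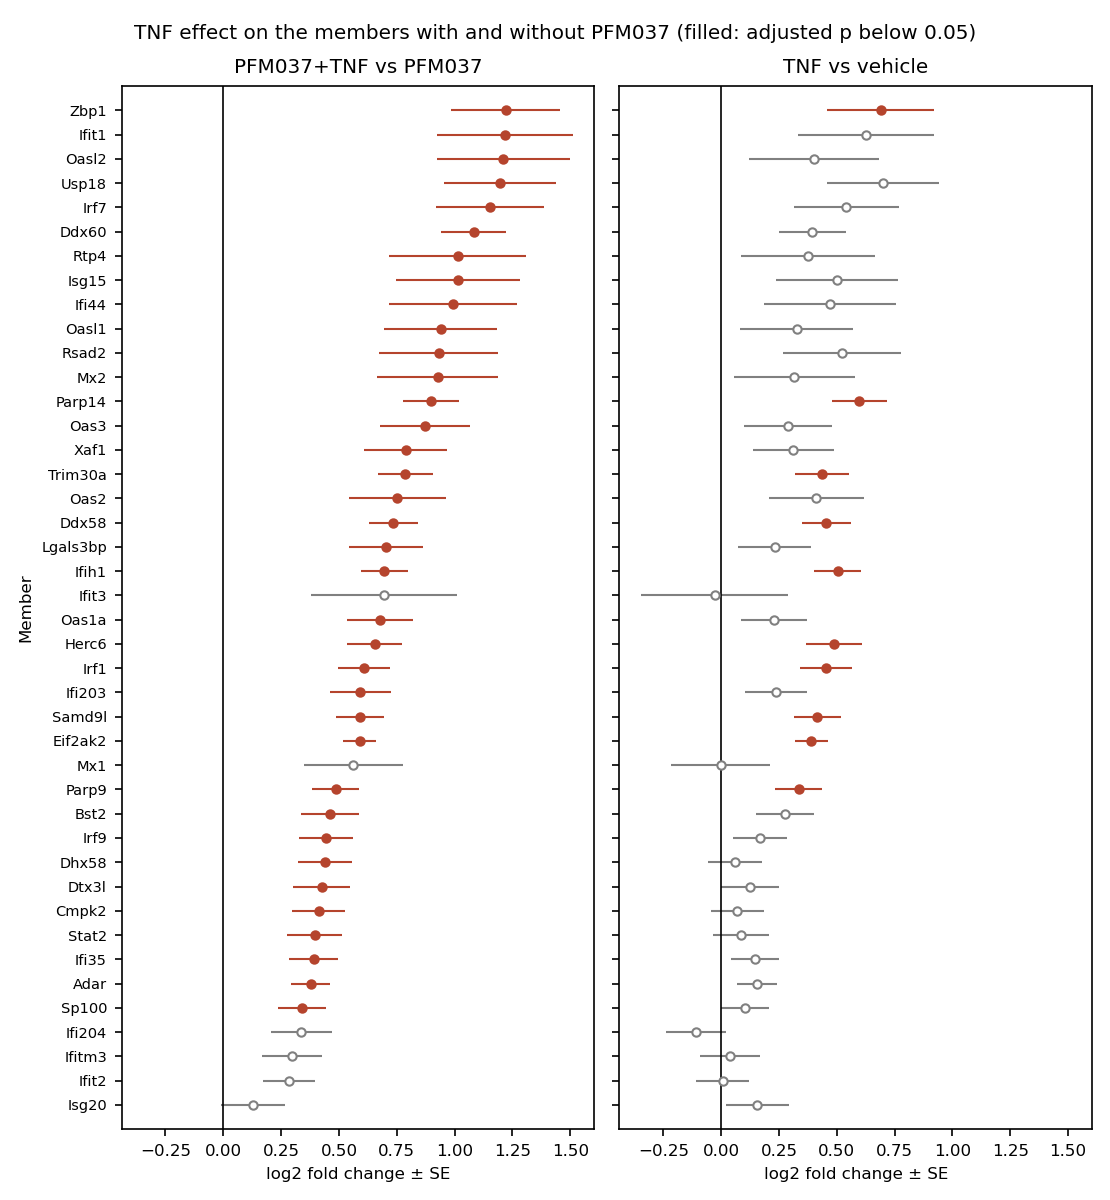
Fitted log2 fold change ± SE of the 42 tested members in PFM037+TNF vs PFM037 (left) and TNF vs vehicle (right), ordered by the left panel, with filled points for an adjusted p under 0.05. On the left 36 points are filled, with Zbp1 at 1.22 and Isg20 at 0.13 at the ends, and on the right 10 are filled.

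PFM037 without TNF changed no member past the threshold. In PFM037 against vehicle 0 of 42 members rose or fell and none had an unadjusted p under 0.05 with edgeR, and DESeq2 and limma-voom also called 0 of 42. Of all genes, 0.0144% rose and 0.065% fell (0.0794% either way), and 8.62% had an unadjusted p under 0.05. Within individuals 3 members were higher with PFM037 in all 4, against 10.5% of all genes. The members' median log2 fold change was -0.02, with fitted values from -0.20 for Xaf1 to 0.27 for Ifi44. Within individuals the median was -0.23 and -0.06 in individuals 1 and 2, and 0.08 and 0.06 in individuals 3 and 4. In individual 1, 34 of 42 members were lower with PFM037 than with vehicle, among them Isg15, Rsad2 and Zbp1 with log2 differences of -0.74, -0.49 and -0.43, whereas in individual 3 33 of 42 were higher. This difference between individuals was not tested, having 1 library of each group per individual.

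PFM037 added to TNF raised few members past the threshold, although most fitted changes were above 0. In PFM037+TNF against TNF 3 of 42 members rose and none fell, where 0.534% of all genes rose and 0.823% fell. They were Ddx60 (1.57-fold, log2 fold change 0.65 ± 0.14, adjusted p = 0.0397), Ifi203 (1.498-fold, log2 fold change 0.58 ± 0.13, adjusted p = 0.0456) and Ifit2 (1.40-fold, log2 fold change 0.49 ± 0.11, adjusted p = 0.0471). Ddx60 stood at 19.5, 19.0, 84.8 and 102 CPM with PFM037+TNF, against 10.6, 9.49, 62.5 and 78.6 CPM with TNF. Ifi203 stood at 49.8, 33.3, 152 and 187 CPM with PFM037+TNF, against 24.9, 18.0, 139.9 and 147 CPM with TNF, and Ifit2 at 15.2, 10.5, 86.5 and 95.2 CPM with PFM037+TNF, against 8.90, 8.70, 64.2 and 68.5 CPM with TNF. All 3 were higher with the compound in all 4 individuals, as were 30 members in all and 12.2% of all genes. The groups overlapped, and no member had all 4 PFM037+TNF libraries above all 4 TNF libraries, as 1.29% of all genes did. None of the 3 calls held in all fits that leave out an individual: 0 members passed without individual 1, 2 or 4 and 1 without individual 3, Ifi203. Calls over all genes were lost as well: 1, 60, 27 and 3 genes passed without individuals 1, 2, 3 and 4, against 188 with all individuals.

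The members as a whole had a median log2 fold change of 0.33 in PFM037+TNF against TNF, against 0.01 for all genes. The fitted change was above 0 for 41 of the 42, as it was for 52.36% of all genes. The exception was Isg20 (-0.09). An unadjusted p under 0.05 was reached by 25 members and by 15.4% of all genes. Within individuals the median was 0.51, 0.61, 0.05 and 0.19 in individuals 1, 2, 3 and 4. The largest fitted values belonged to members that did not pass, Ifit3 (log2 fold change 0.82 ± 0.32, adjusted p = 0.228), Ifi44 (log2 fold change 0.79 ± 0.28, adjusted p = 0.169) and Oasl2 (log2 fold change 0.72 ± 0.28, adjusted p = 0.218). The tool and filter moved the number called: it was 6 with DESeq2 (421 of all genes), 0 with limma-voom (240 genes), 1 with the stricter filter (166 of 10134 genes), 13 when only these groups were fitted (408 of 13079 genes), 27 with no filter beyond a count above 0 (653 of 30556 genes), and 0 without the individual as a block, where 3.72% of all genes but no member had an unadjusted p under 0.05. Markers of neutrophils moved the same way: the fitted change was above 0 for 9 of 9, of which Ly6g and Ltf passed (0.73 and 0.57 on the log2 scale), and their summed level was 8930 to 18840 CPM with PFM037+TNF and 7554 to 11970 CPM with TNF, with none at 0. The fitted change was also above 0 for 9 of 10 mast cell, basophil and eosinophil markers (median 0.28). It was above 0 for 7 of 8 plasmacytoid dendritic cell markers (median 0.23), and no marker of these 2 lists passed. By contrast, it was above 0 for 5 of 12 monocyte and macrophage markers and 2 of 7 erythroid and megakaryocyte markers. The part of such cells in the result was not tested.

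Whether the effect of TNF on the members depended on PFM037 was asked by the interaction of both treatments. It passed for 0 of 42 members and for 0 of all 13856 genes with edgeR, and DESeq2 and limma-voom also called no member. At an unadjusted p under 0.05 there were 7 members (Ddx60, Oas3, Lgals3bp, Oas1a, Ifi204, Dhx58 and Cmpk2) and 2.76% of all genes, and without the individual as a block 0 members and 0.657% of all genes. The fitted interaction was above 0 for 41 members, as it was for 54.4% of all genes. Its median over the members was 0.35 on the log2 scale, against 0.01 for all genes. Its within-individual median was 0.78, 0.71, -0.01 and 0.12 in individuals 1, 2, 3 and 4. The counts of 36 with PFM037 and 10 without it therefore do not show that TNF acts differently in its presence, and for Irf7 the interaction was 0.61 ± 0.32 on the log2 scale (unadjusted p = 0.0760). With no filter beyond a count above 0 the interaction passed for 12 members and for 34 of 30556 genes, the members including Zbp1, Irf7, Ifit1, Isg15 and Mx1.

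Against vehicle, PFM037+TNF raised 37 of 42 members and lowered none, where 12.8% of all genes rose and 12.0% fell, with a median log2 fold change of 0.68 for the members and -0.00 for all genes. This comparison shares its vehicle libraries with TNF against vehicle and its PFM037+TNF libraries with the comparisons above. The 5 largest changes were those of Ifit1 (1.27), Ifi44 (1.26), Zbp1 (1.13), Oasl2 (1.12) and Irf7 (1.10), and the 5 smallest past the threshold those of Ifi35 (0.33), Bst2 (0.38), Irf9 (0.40), Dtx3l (0.40) and Stat2 (0.41). Not passing were Ifi204, Ifit3, Mx1, Isg20 and Ifitm3. The number that passed was 26, 23, 39 and 30 without individuals 1, 2, 3 and 4, and 0 without the individual as a block, where 2.63% of all genes passed. Over all genes 2950, 2045, 2868 and 2119 passed without individuals 1, 2, 3 and 4, against 3437 with all individuals. Of the 37 calls, 19 held in all 4 of these fits. The calls of Ifi35, Bst2, Irf9, Dtx3l and Stat2 were each lost in some of them. Among the 5 largest, the call of Oasl2 was lost without individual 2 and that of Ifi44 with limma-voom. Within individuals 38 members were higher in all 4, as were 18.6% of all genes, and no member had all 4 PFM037+TNF libraries above all 4 vehicle libraries, as 4.81% of all genes did. Markers of other cells moved in this comparison too: of 10 mast cell, basophil and eosinophil markers 5 rose and none fell, with all 10 above 0 and a median log2 fold change of 0.43, and their summed level was 141 to 587 CPM with PFM037+TNF and 125 to 370.0 CPM with vehicle. Of 12 monocyte and macrophage markers 7 rose and 2 fell, and of 6 conventional dendritic cell markers 2 rose and 1 fell. The part of these cells in the result was not tested.

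The ligands that act upstream of these genes were at the limit of detection. Of 21 interferon genes 5 had any count, with 18 counts in all 16 libraries for Ifnb1, 12 for Ifng, 3 for Ifnz, 2 for Ifnab and 1 for Ifnk, and none could be tested. Ifnb1, interferon beta, had 0, 2, 2 and 2 counts in individuals 1 to 4 with PFM037+TNF, and 4, 3, 5 and 0 counts with vehicle. It had no count in the 4 TNF and the 4 PFM037 libraries. These counts at 24 h set no level apart from another.

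Receptor and signal genes upstream of the members rose in part, and their changes are given as log2 fold changes ± SE. Of 11 receptor and signalling genes, 6 rose and none fell in PFM037+TNF against PFM037, and 4 rose and none fell in TNF against vehicle, with no change past the threshold in PFM037 against vehicle or PFM037+TNF against TNF. In the first comparison 10.6% of all genes rose and 9.76% fell, and in the second 9.59% rose and 9.84% fell. Ifnar1 averaged 369.5 ± 40.5 CPM with PFM037+TNF and 283 ± 61.0 CPM with PFM037 (SD, n = 4 each), a log2 fold change of 0.40 ± 0.07, adjusted p = 0.000539. In TNF against vehicle it was 0.32 ± 0.07, adjusted p = 0.00305. Ifnar2 went the other way, at 121 ± 20.3 CPM with PFM037+TNF and 136 ± 18.2 CPM with vehicle (-0.18 ± 0.06, adjusted p = 0.0283), and did not pass in PFM037+TNF against PFM037 (-0.16 ± 0.06, adjusted p = 0.0588). Jak2, the kinase of several cytokine receptors, rose by 0.57 ± 0.07, adjusted p = 1.72e-05 in PFM037+TNF against PFM037 and 0.54 ± 0.07, adjusted p = 2.62e-05 in TNF against vehicle. None of these calls held in the fit without the individual as a block.

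Of 46 tested interferon-stimulated genes outside the module, 25 rose and none fell in PFM037+TNF against PFM037, with a median log2 fold change of 0.31, and 9 rose and 1 fell in TNF against vehicle, with a median of 0.20. Of all genes, 10.6% rose and 9.76% fell in the former and 9.59% rose and 9.84% fell in the latter. These shares also stand beside the counts of the other lists below. Cxcl10, a chemokine for T cells with its own kappa B sites, rose by 2.26 ± 0.24, adjusted p = 7.95e-06 in the PFM037 pair and 1.61 ± 0.25, adjusted p = 0.000246 in the vehicle pair. Ifi205 (1.70 ± 0.28, adjusted p = 0.000363), Trim30d (1.00 ± 0.17, adjusted p = 0.000417) and Apobec3, a deaminase that restricts retroviruses (0.60 ± 0.08, adjusted p = 3.82e-05), followed in the PFM037 pair, and Apobec3 also passed without the individual as a block (adjusted p = 0.0345). PFM037 against vehicle and PFM037+TNF against TNF called none of the 46, and the interaction called none. Genes that induce interferon went both ways, with 3 of 18 higher and 3 lower in PFM037+TNF against PFM037. Ikbke, a kinase of Irf3 and Irf7 and a known NF-kB target, rose (1.12 ± 0.08, adjusted p = 2.43e-07) and Tlr9, a DNA sensor of endosomes, fell (-0.50 ± 0.11, adjusted p = 0.00444). In TNF against vehicle 2 of the 18 rose and 4 fell, with Tlr9 at -0.80 ± 0.11, adjusted p = 0.000106, and in PFM037+TNF against TNF Tlr9 alone rose (0.50 ± 0.12, adjusted p = 0.0471). Of 14 negative regulators 4 rose and 1 fell in PFM037+TNF against PFM037, and none passed in PFM037+TNF against TNF. In PFM037+TNF against PFM037 Tnfaip3, the NF-kB feedback inhibitor A20, changed most (2.28 ± 0.15, adjusted p = 7.07e-08), and Nlrc5 (0.60 ± 0.09, adjusted p = 0.000157) and Socs3 (0.70 ± 0.12, adjusted p = 0.000464) also rose.

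Markers of the labelled cells and of neutrophils moved with TNF as well. Of 12 monocyte and macrophage markers 8 rose and 1 fell in PFM037+TNF against PFM037, while none of 8 tested plasmacytoid dendritic cell markers, none of 10 mast cell, basophil and eosinophil markers and none of 8 lymphocyte and NK cell markers passed. Of 9 neutrophil markers 2 fell (4 in TNF against vehicle), and of 6 conventional dendritic cell markers 3 rose and 1 fell, including Ccr7, which activated myeloid cells also express. In TNF against vehicle 2 plasmacytoid dendritic cell markers and 1 lymphocyte and NK cell marker fell, and 1 of the mast cell list rose. Of all genes 10.6% rose and 9.76% fell in PFM037+TNF against PFM037, and 9.59% rose and 9.84% fell in TNF against vehicle. The part of these shifts in the change of the members was not tested. Trex1, the DNA exonuclease listed at 0 throughout, lies wholly inside the exons of Atrip on the same strand (chr9:109057933-109059734, minus strand), and 93.4% of its read-length words also occur in Atrip transcripts, so that its 0 says nothing of its expression. Smaller shares of read-length words were common to other genes for Herc6 (11.3%), Rtp4 (10.5%), Ifit1 (5.19%) and Trim30a (4.98%). Promoters with the ISRE letters belonged to 15 tested members, of which 13 rose in PFM037+TNF against PFM037 (median log2 fold change 0.70), and promoters without them to 17, of which 15 rose (median 0.59).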

How the data were processed

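Counts per gene symbol were deposited by the authors, 1 column per library. The submitters' processing notes name STAR 2.5.3a, featureCounts, limma and the builds mm10 and GRCm38, without settings, so whether strand was used in counting is unknown. Per the labels' protocols, 500 ng of RNA went into stranded mRNA libraries read as single 75-base reads. Of the 50508 rows, 30556 had a count, and 26 symbols had been turned into dates. Library totals of 9403232 to 21017905 counts set the counting error.

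All 16 libraries were fitted in 1 model with group and individual (edgeR 4.0.16 quasi-likelihood test, R 4.3.3, TMM scaling). Rows passed filterByExpr (minimum count 10, minimum total 15), which left 13856 genes, and p-values were adjusted by Benjamini-Hochberg over all of them, with 0.05 as threshold. The SE is the size of the log2 fold change divided by the root of its F statistic. Within-individual differences used log2 CPM with a prior count of 2. The individual enters as a block because the labels name it: libraries of 1 individual deviated together from their group means (r 0.497 to 0.777 over 24 pairs). Libraries of different individuals in different groups did so too, with r up to 0.609 between individuals 3 and 4 and 0.515 between individuals 1 and 2. A library's best partner in another group was the same individual in 45 of 48 cases. The model was also run on simulated data with the same fold change in every individual, which cannot show how it treats changes that differ between individuals. limma 3.58.1 and DESeq2 1.42.0 served as alternatives, beside other scalings and filters, no block, and each individual left out.

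The members and the lists of other genes were chosen with earlier results of these data known. Named in full were 13 members chosen for their roles and, per comparison, the 5 highest and 5 lowest changes past the threshold, and other genes by smallest adjusted p within their list. Read sharing is the share of 75-base words of a gene's transcripts found in other genes. Results for some genes are not reported here.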

Additional observations from a re-analysis of the deposited data

How the results depend on the processing

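Counts of members past the threshold depended on the block and on the filter. Without the individual as a block, 0 members passed in TNF vs vehicle (10 with it), 0 in PFM037+TNF vs PFM037 (36), 0 in PFM037+TNF vs TNF (3) and 0 in PFM037+TNF vs vehicle (37). With no filter beyond a count above 0, 23 passed in TNF vs vehicle, 27 in PFM037+TNF vs TNF and 12 in the interaction (0 with the filter). When only the groups compared were fitted, 22 passed in TNF vs vehicle and 13 in PFM037+TNF vs TNF. In PFM037+TNF vs TNF, 1 passed with the stricter filter, 6 with DESeq2 and 0 with limma-voom. The cause of these shifts and of those without the block was not tested. With each individual left out in turn, 5 to 11 members passed in TNF vs vehicle, 24 to 38 in PFM037+TNF vs PFM037, 0 to 1 in PFM037+TNF vs TNF and 23 to 39 in PFM037+TNF vs vehicle, and 0 in PFM037 vs vehicle and in the interaction. Counts under DESeq2 size factors or library size alone stayed within 1.5 times of those reported. No called value changed sign under any of these alternatives, and the members' median log2 fold change moved by less than its spread between individuals. This is a loose limit, as the spread (SD of the 4 individual medians) was wide. It was 0.48 in PFM037+TNF vs PFM037, with a median of 0.69, and 0.40 in the interaction, with a median of 0.35. Ifi44 and Ifit3, with as few as 4 and 11 counts in a library, are the members whose values depth limits most.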

Other observations

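Median log2 differences by role group in PFM037+TNF against PFM037 are given here as a description, with no test between groups. The 3 IFIT genes had 3.02, 1.88, -0.00 and 0.31 in individuals 1, 2, 3 and 4. The ISG15 system had 2.62, 1.36, 0.14 and 0.70, and the oligoadenylate synthetases and RNA-activated kinase with 1.81, 1.205, 0.15 and 0.37. The remaining interferon-stimulated genes had 1.71, 1.03, 0.09 and 0.35, and the GTPases, membrane and nucleotide effectors 1.155, 0.75, 0.14 and 0.31. The signal and transcription factors had 1.03, 0.66, 0.18 and 0.38, and the sensors of RNA and DNA 1.01, 0.91, 0.35 and 0.58. The genes of ADP-ribosylation had 0.95, 0.60, 0.29 and 0.34, and Adar alone 0.77, 0.325, 0.19 and 0.22. Members whose promoter window held a gamma-activated site passed in 6 of 9 cases in that comparison, with a median log2 fold change of 0.39, and those without one in 22 of 23, with a median of 0.73. For the kappa B letters the counts were 3 of 6, with a median of 0.38, and 25 of 26, with a median of 0.69. These counts are descriptions of few promoters, and Bst2, Ifit2, Ifitm3 and Isg20 held the letters of both. Only the exact letters were searched. Members counted as without the kappa B letters, Irf1 among them, may hold a kappa B site spelled otherwise.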
